A study of Mus musculus with 6 samples.

Results

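Reactive glia switch on a set of genes that overlaps with the acute-phase response of the liver, and 10 of these genes were followed in the ischemic retina with and without chronic intermittent hypoxia (CIH). They encode the transcription factors Cebpd and Cebpb, the secreted proteins Serpina3n, Lcn2, A2m and Timp1, the membrane proteins Steap4, Cd44 and S1pr3, and the enzyme Aspg. For short they are called the acute-phase genes below, although some, such as Cd44 and S1pr3, are known from reactive glia and not as acute-phase proteins. The genes were chosen by name, with their earlier results in these same retinas known, and make up 10 of the 32285 genes of the count table. Their differences between the groups are therefore given as a description, without p-values. The other gene lists were also chosen with earlier results known, so the p-values printed for their genes are descriptive too.

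Retinas came from wild-type C57BL/6J mice, and all pups of both groups went through oxygen-induced retinopathy (OIR). Pups and mothers were kept in 75% O2 from postnatal day (PN) 8 to PN13, which closes the capillaries of the central retina and leaves it ischemic once the pups breathe room air. From PN13, OIR-Norm pups stayed in room air with the gas flow and noise of the CIH cages. OIR-CIH pups spent 10 h of each day in a cage whose O2 cycled between 20.95% and 5%, with 266 cycles of 135 s. Retinas were taken at PN18, and 3 libraries were sequenced per group. Without a group that had not been through hyperoxia, the values show how the 2 OIR groups differed and not how far either stood from a healthy retina.

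Astrocytes and Müller glia, the radial glia that span the retina, answer injury with gliosis, in which intermediate filament genes such as Gfap rise together with secreted and cell surface proteins. Genes found in reactive astrocytes after both inflammation and ischemia are called pan-reactive, while the names A1 and A2 were given to those found mainly after one of these. In the liver, cytokines of the IL-6 family act through the receptor chain gp130 and STAT3, and together with C/EBP factors switch on the acute-phase proteins. Several of the genes followed here are known targets of the same relay in glia.

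The libraries held 26289905 to 38010151 counted reads. Rod markers summed to 48600 to 64100 CPM (counts scaled to a common library size), the highest of all cell types measured. The RNA of Xist, made by the inactive X chromosome, and of the Y-linked Ddx3y was present in all 6 libraries (Xist at 298.5 to 1653 CPM, Ddx3y at 21.2 to 65.0 CPM). Each library therefore held RNA of more than 1 animal or of mixed origin, and n and the SD count libraries, which may not be separate animals. OIR-Norm replicate 2 stood apart by lens genes, whose summed level was 378.2 CPM against 12.9 to 59.3 CPM in the other 5 libraries, and values without it are given beside the results it moved most.

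The acute-phase genes were for the most part lower in OIR-CIH retinas, with the clearest gaps in Serpina3n, Cebpd, Timp1 and Steap4. All 10 genes passed the filter on low counts, and 9 had a lower fitted level in OIR-CIH, Cebpb being the exception, where 50.5% of all genes tested were lower. A gene was called where edgeR's quasi-likelihood test gave an adjusted p (Benjamini-Hochberg) below 0.05 and the log2 fold change was beyond 0.5 either way. By this rule 4 of the 10 were called, all lower, against 0.315% of the 20021 genes tested that were called in either direction and 0.215% that were called lower. In 6 of the 10, every OIR-CIH retina lay below every OIR-Norm retina, as did 9.26% of all genes tested. The median log2 fold change (OIR-CIH minus OIR-Norm) of the 10 was -0.58, and that of all genes tested was -0.003. Of all genes tested, 13.2% had an unadjusted p under 0.05 in edgeR, which is the share to set beside the counts at that limit given for the gene lists. Since the genes were chosen with this comparison known, nothing is read from these counts. The same limit holds for the counts and p-values of the other lists below.

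**Figure D1:**
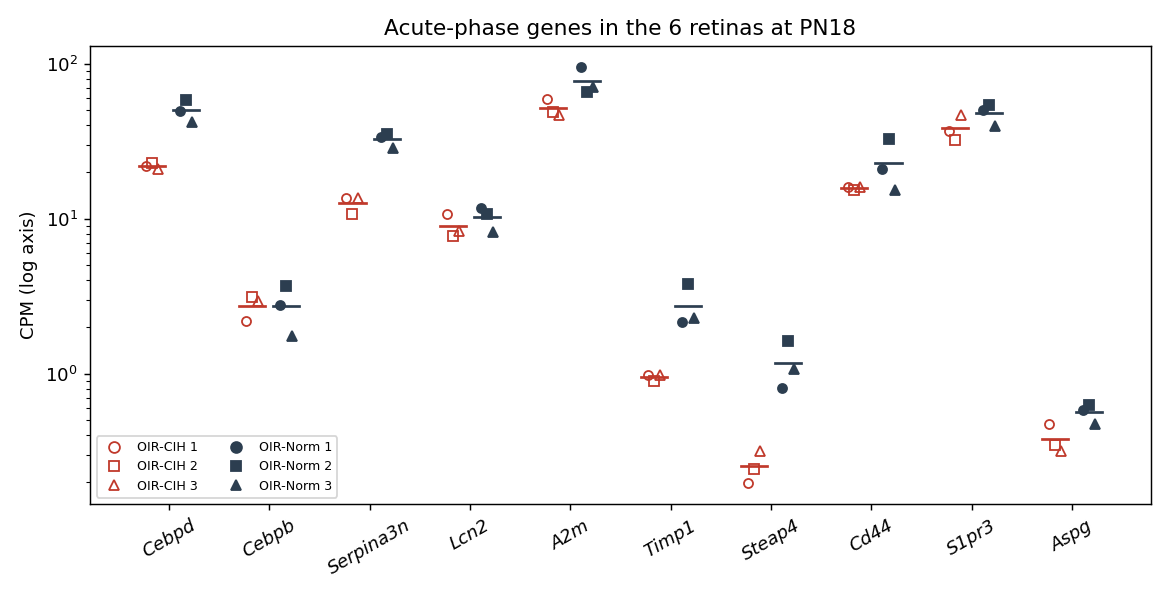
CPM of each of the 10 genes in each retina (log axis), with open red symbols for OIR-CIH, filled dark symbols for OIR-Norm, a symbol shape for each replicate number and a line at each group mean. The groups lie apart for Cebpd, Serpina3n, A2m, Timp1 and Steap4, narrowly apart for Aspg (0.4709 against 0.4712 CPM at the nearest pair) and overlap for Cebpb, Lcn2, Cd44 and S1pr3.

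The stretch of 250 bases before the RefSeq start site was searched for binding letters of the factors known to drive acute-phase genes. RefSeq windows (GRCm38.p6) were given for 8 of the 10 genes, without Cebpd and A2m. The RefSeq start can differ from the gene start printed below. The Lcn2 window (chr2:32387740-32387989, minus strand) lies inside the printed gene, and the windows of Steap4 and Aspg run slightly past the printed gene start. Shown are the 3 called genes that have a window and Cebpb, the gene whose group means were closest, each from 5′ to 3′ along its own strand. Capitals mark matches to the C/EBP letters TTNNGNAA or the STAT letters TTCNNNGAA, searched on both strands.
Serpina3n: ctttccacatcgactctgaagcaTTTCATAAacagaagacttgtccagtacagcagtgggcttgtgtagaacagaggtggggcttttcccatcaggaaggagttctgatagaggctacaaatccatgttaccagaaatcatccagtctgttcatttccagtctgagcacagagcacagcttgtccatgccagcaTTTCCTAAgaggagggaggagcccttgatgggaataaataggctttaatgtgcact
Steap4: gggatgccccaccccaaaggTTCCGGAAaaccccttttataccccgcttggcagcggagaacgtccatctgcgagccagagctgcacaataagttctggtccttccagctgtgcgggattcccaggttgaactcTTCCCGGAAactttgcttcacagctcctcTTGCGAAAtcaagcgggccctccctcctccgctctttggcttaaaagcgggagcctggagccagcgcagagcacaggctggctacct
Timp1: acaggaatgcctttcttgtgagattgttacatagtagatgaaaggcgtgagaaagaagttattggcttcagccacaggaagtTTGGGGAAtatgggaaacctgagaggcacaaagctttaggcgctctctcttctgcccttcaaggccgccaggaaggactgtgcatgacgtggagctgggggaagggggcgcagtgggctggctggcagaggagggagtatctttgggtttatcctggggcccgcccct
Cebpb: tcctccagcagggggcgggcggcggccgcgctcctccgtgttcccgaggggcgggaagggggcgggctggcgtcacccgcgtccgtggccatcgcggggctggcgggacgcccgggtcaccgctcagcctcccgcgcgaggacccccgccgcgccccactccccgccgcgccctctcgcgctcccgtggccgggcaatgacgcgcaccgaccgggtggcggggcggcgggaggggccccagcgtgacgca
The windows lie at chr12:104406458-104406707 for Serpina3n, chr5:7960222-7960471 for Steap4, chrX:20869916-20870165 for Timp1 and chr2:167688665-167688914 for Cebpb, all on the plus strand. The C/EBP letters were found in 5 of the 8 windows (Serpina3n, Lcn2, Steap4, Timp1 and Aspg) and in 36.8% of all 32851 promoters of this length. Steap4 was the only one of the 8 with the STAT letters, as TTCCCGGAA from 116 to 108 bases before the start, which 7.02% of all promoters held, and they overlapped none of its C/EBP matches. An NF-kB pattern, GGG and CC set 5 bases apart, was in 7 of the 8 windows, against 45.8% of all promoters. The AP-1 letters TGANTCA were in 0 of the 8, against 6.75% of all. The hypoxia response letters ACGTG were in the windows of Timp1 and Cd44, and in 16.6% of all promoters. The Cebpb window held no capitals and was made of 81.6% G and C, whereas the other printed windows had 46.4% to 58.4%. The cyclic AMP letters TGACG occurred in Cebpb and Timp1 and in 17.8% of all promoters. Such matches are letters in a window and not shown to be bound.

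The 2 C/EBP factors, which bind the same letters and are both known as acute-phase regulators, differed in their values. Cebpd, encoding C/EBPδ (chr16:15887286-15891031, plus strand, ENSMUSG00000071637), measured 21.7, 23.02 and 20.8 CPM in OIR-CIH replicates 1 to 3 and 49.9, 58.3 and 41.8 CPM in OIR-Norm replicates 1 to 3. Every OIR-Norm retina had more than every OIR-CIH retina, with a wide gap, and the OIR-CIH retinas lay close together. The means were 21.9 ± 1.10 CPM (SD, n = 3) and 49.99 ± 8.21 CPM (SD, n = 3), a log2 fold change of -1.19 (SE 0.11). Cebpb, encoding C/EBPβ (chr2:167688915-167690418, plus strand, ENSMUSG00000056501), measured 2.20, 3.12 and 2.94 CPM in OIR-CIH and 2.79, 3.68 and 1.76 CPM in OIR-Norm. The highest and the lowest retina were both OIR-Norm, and the OIR-CIH values lay between them. Its means were 2.75 ± 0.489 CPM and 2.745 ± 0.963 CPM (SD, n = 3 each), with a log2 fold change of 0.02 (SE 0.25). Leaving out 1 retina at a time moved Cebpb between -0.23 and 0.28 on the log2 scale and Cebpd between -1.31 and -1.07. Both genes share exon bases with a gene on the opposite strand, Cebpd 562 bases with Spidr and Cebpb 312 bases with Tmem189, and which strand column was kept in the count table is not stated. Spidr measured 10.6 CPM in OIR-CIH and 14.8 CPM in OIR-Norm, and its part in the Cebpd counts was not tested.

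Among the secreted proteins, Serpina3n and Timp1 were lower in OIR-CIH by a factor of more than 2 in the means, A2m by less, and Lcn2 overlapped between the groups. Serpina3n, a serine protease inhibitor and a widely used marker of reactive astrocytes (chr12:104406729-104414329, plus strand, ENSMUSG00000021091), measured 13.5, 10.7 and 13.6 CPM in OIR-CIH and 33.8, 35.2 and 28.7 CPM in OIR-Norm. The lowest OIR-Norm retina held more than any OIR-CIH retina, and neither group had a retina far from its others. Its mean was 12.6 ± 1.65 CPM in OIR-CIH, 38.7% of the 32.6 ± 3.44 CPM in OIR-Norm (SD, n = 3 each), a log2 fold change of -1.37 (SE 0.12). The call stood in all 6 fits that left out 1 retina, with log2 fold changes from -1.45 to -1.27. Timp1, which inhibits matrix metalloproteinases (chrX:20870166-20874735, plus strand, ENSMUSG00000001131), measured 0.981, 0.902 and 0.979 CPM in OIR-CIH and 2.14, 3.79 and 2.29 CPM in OIR-Norm. The 3 OIR-CIH retinas were nearly level, while OIR-Norm replicate 2 stood above the others of its group. The means of Timp1 were 0.954 ± 0.0454 CPM and 2.74 ± 0.910 CPM (SD, n = 3 each), a log2 fold change of -1.51 (SE 0.26). Its call stood only in the fits without OIR-Norm replicate 1 or without OIR-Norm replicate 3, and without OIR-Norm replicate 2 its log2 fold change was -1.21.

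A2m, encoding the broad protease inhibitor α2-macroglobulin (chr6:121635376-121679227, plus strand, ENSMUSG00000030111), measured 59.6, 48.6 and 46.4 CPM in OIR-CIH and 95.6, 65.8 and 70.4 CPM in OIR-Norm. The groups did not overlap, and OIR-Norm replicate 1 was the highest, unlike in most of the other genes. The means were 51.5 ± 7.05 CPM and 77.3 ± 16.0 CPM (SD, n = 3 each), a log2 fold change of -0.59 (SE 0.13) that was not called. A2m was called by DESeq2, (which called 0.674% of all genes tested), and also by edgeR in a looser table that kept all genes with any read (0.872%) or with the replicate number as a block (0.42%). Lcn2, encoding lipocalin 2, which withholds iron from bacteria by binding their siderophores (chr2:32384633-32388252, minus strand, ENSMUSG00000026822), measured 10.7, 7.73 and 8.36 CPM in OIR-CIH and 11.7, 10.7 and 8.26 CPM in OIR-Norm. The lowest OIR-Norm retina lay below 2 of the OIR-CIH retinas. Its means were 8.92 ± 1.55 CPM and 10.2 ± 1.76 CPM (SD, n = 3 each), a log2 fold change of -0.20 (SE 0.16), which ranged from -0.34 to -0.09 without 1 retina.

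Of the membrane proteins, Steap4 had the largest log2 fold change of the 10 genes, on low counts, and Cd44 and S1pr3 overlapped between the groups. Steap4, a metalloreductase of the cell membrane and endosomes (chr5:7960457-7982213, plus strand, ENSMUSG00000012428), measured 0.196, 0.243 and 0.318 CPM in OIR-CIH and 0.811, 1.61 and 1.07 CPM in OIR-Norm. The lowest OIR-Norm retina held more than any OIR-CIH retina, but the values rest on 5 to 46 reads per library. The means were 0.252 ± 0.0612 CPM and 1.16 ± 0.410 CPM (SD, n = 3 each), a log2 fold change of -2.15 (SE 0.38). Its call stood only in the fit without OIR-Norm replicate 1 of the 6 that left out a retina, and its log2 fold change was -1.85 without OIR-Norm replicate 2. With limma on log2(CPM + 0.5), which shrinks the change of low genes, the log2 fold change was -1.12. Cd44, the receptor for the matrix sugar hyaluronan (chr2:102811141-102901665, minus strand, ENSMUSG00000005087), measured 15.9, 15.4 and 15.96 CPM in OIR-CIH and 20.9, 32.6 and 15.3 CPM in OIR-Norm. The OIR-CIH retinas were nearly equal, and the OIR-Norm retinas spanned the widest range of any of the 10 genes by their ratio of highest to lowest. The means were 15.8 ± 0.318 CPM and 22.9 ± 8.83 CPM (SD, n = 3 each), a log2 fold change of -0.54 (SE 0.20) that was -0.20 without OIR-Norm replicate 2. S1pr3, a G protein-coupled receptor for sphingosine-1-phosphate (chr13:51408639-51422797, plus strand, ENSMUSG00000067586), measured 36.6, 32.4 and 46.6 CPM in OIR-CIH and 50.3, 54.2 and 39.8 CPM in OIR-Norm. OIR-CIH replicate 3 lay above OIR-Norm replicate 3. Its means were 38.5 ± 7.31 CPM and 48.1 ± 7.46 CPM (SD, n = 3 each), a log2 fold change of -0.32 (SE 0.13).

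Aspg, which encodes an asparaginase (chr12:112106679-112127559, plus strand, ENSMUSG00000037686), was the gene of the 10 with the lowest level per exon length in OIR-Norm. It measured 0.471, 0.347 and 0.318 CPM in OIR-CIH and 0.584, 0.631 and 0.471 CPM in OIR-Norm, from 10 to 18 reads per library. The highest OIR-CIH retina and the lowest OIR-Norm retina were nearly tied. The means were 0.378 ± 0.0814 CPM and 0.562 ± 0.0823 CPM (SD, n = 3 each), and the log2 fold change was -0.58 (SE 0.38).

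**Figure D2:**
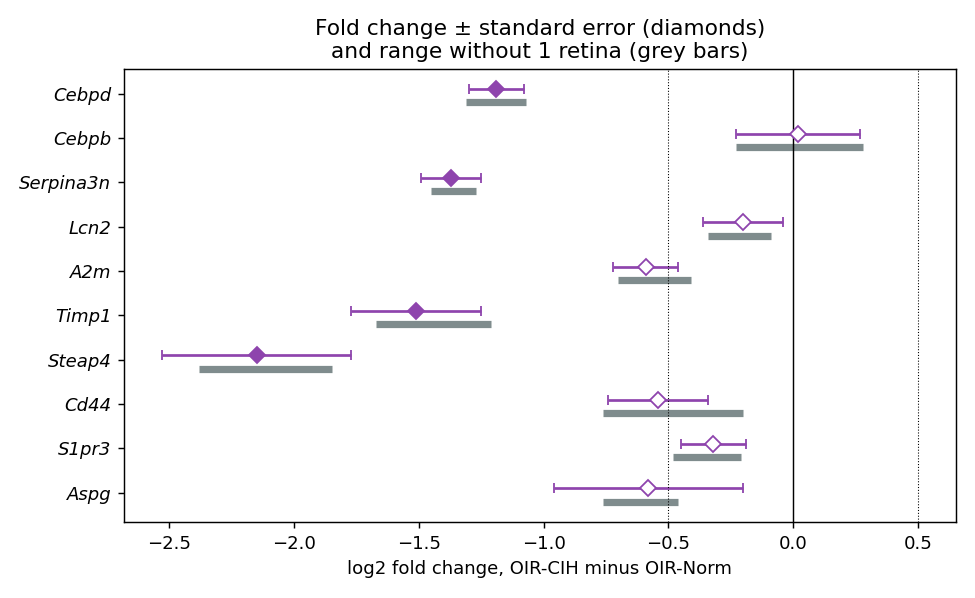
Log2 fold change of each gene (OIR-CIH minus OIR-Norm; diamonds, filled where called) with its standard error as a bar, and in grey the range of the 6 fits that left out 1 retina, with dotted lines at the fold change limits of 0.5 either way. The grey range of Cebpb spans 0, those of the other 9 genes lie below it, and those of Serpina3n and Cebpd are narrow next to their distance from 0.

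The genes also differed in how even they were within a group. The coefficient of variation was larger in OIR-Norm than in OIR-CIH for 6 of the 10 genes, the gap being widest for Cd44 (38.5% against 2.02%) and Timp1 (33.2% against 4.76%). OIR-Norm replicate 2 was the highest of its group in 8 of the 10 genes and OIR-Norm replicate 3 the lowest in 7. OIR-Norm replicate 2 is the library with the high lens genes. It also had the highest summed endothelial (271.2 CPM), mural (228.1 CPM) and fibroblast (49.9 CPM) markers of the 6 libraries. OIR-Norm replicate 3 had the lowest of its group in each of these sums. The part of lens, vessel and fibroblast RNA in the values was not tested. Without OIR-Norm replicate 2, 2 of the 10 genes were called (Serpina3n and Cebpd, beside 0.264% of all genes tested), the same 2 that were called in all 6 fits without a retina.

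Set per kilobase of exon, the only scale on which levels of different genes are compared here, Serpina3n led in OIR-Norm with 15.8 ± 1.67 CPM per kb (SD, n = 3), followed by Cebpd with 13.3 ± 2.19, A2m with 11.0 ± 2.28 and S1pr3 with 10.8 ± 1.67. Each of these 4 overlapped its neighbour in the order. After a gap came Lcn2 with 3.89 ± 0.672, Cd44 with 3.38 ± 1.30, Timp1 with 3.09 ± 1.03 and Cebpb with 1.83 ± 0.640 CPM per kb, again each overlapping the next. Steap4, at 0.369 ± 0.130, and Aspg, at 0.160 ± 0.0234 CPM per kb, lay apart from these and from each other. In OIR-CIH the order was led by S1pr3 with 8.63 ± 1.64 and A2m with 7.34 ± 1.004 CPM per kb, ahead of Serpina3n with 6.10 ± 0.801 and Cebpd with 5.84 ± 0.294. At the lower end of OIR-CIH, Timp1 had 1.07 ± 0.0511 CPM per kb, below the 1.83 ± 0.325 of Cebpb. Aspg, at 0.108 ± 0.0231, and Steap4, at 0.0799 ± 0.0194 CPM per kb, were last and overlapped. The place of A2m depends on the length used, since on its longest single transcript it had 16.8 CPM per kb in OIR-Norm, and Lcn2 had 7.44.

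Close relatives of the 10 genes were compared to see whether whole families differed. Of 27 paralogues found in the table, 17 could be tested, and 9 were lower and 8 higher, with a median log2 fold change of -0.04. None was called by edgeR, DESeq2 or limma, and 3 had an unadjusted p under 0.05 in edgeR's quasi-likelihood test. In the C/EBP family, Cebpa measured 1.84 CPM in OIR-CIH and 2.96 CPM in OIR-Norm (log2 fold change -0.69, SE 0.19), and Cebpg 28.6 and 36.8 CPM (-0.37, SE 0.09). Ddit3, the stress-induced C/EBP homologue, leaned the other way at 37.2 and 32.1 CPM (0.21, SE 0.08), and Cebpz had a log2 fold change of 0.05. Of the other metalloproteinase inhibitors, Timp2 and Timp3 had log2 fold changes of -0.04 and 0.08, and Timp4, with a mean under 1 CPM, of -0.52 (SE 0.34), beside the -1.51 of Timp1. Per kilobase, Timp2 stood at 31.95 CPM in OIR-Norm, above the 3.09 of Timp1. Steap1, Steap2 and Steap3 had log2 fold changes of 0.27, -0.13 and -0.16, and the sphingosine-1-phosphate receptors S1pr1 and S1pr2 of -0.05 and 0.00. The Serpina3 cluster and the A2m family had no relative at 1 CPM or more, the highest being Serpina3g with a maximum of 0.974 CPM and Pzp with a maximum of 0.624 CPM.

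**Figure D3:**
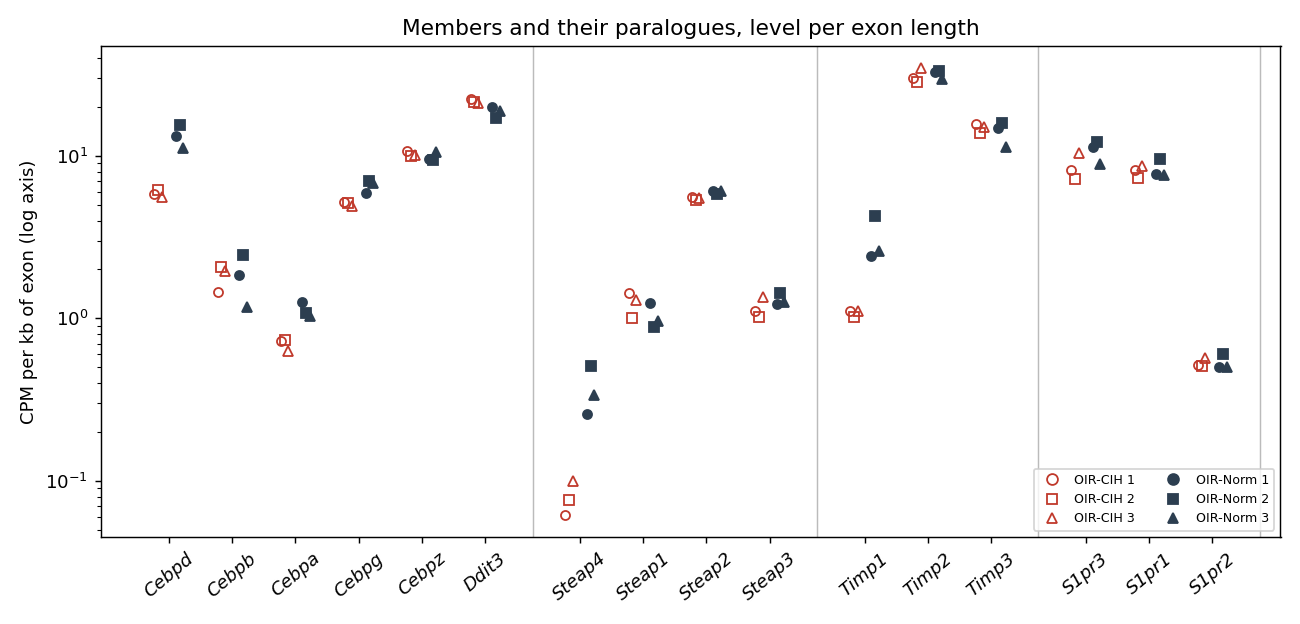
CPM per kilobase of exon (log axis) of Cebpd, Cebpb, Steap4, Timp1 and S1pr3 beside their paralogues with a mean of at least 1 CPM, per retina, with open red symbols for OIR-CIH and filled dark symbols for OIR-Norm. The groups lie apart, with OIR-CIH lower, for Cebpd, Timp1, Steap4, Cebpa, Cebpg and Steap2 and, with OIR-CIH higher, for Ddit3, and they overlap for the other 9 genes.

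Among ligands, receptors, substrates and enzymes linked to the encoded proteins, osteopontin was called. Of 17 such genes, 16 were tested, 11 of them lower and 5 higher, with a median log2 fold change of -0.10. An unadjusted p under 0.05 was found for 5 of the 16, and the groups did not overlap for 4 lower genes (Spp1, Mmp2, Mmp14 and Has3) and 2 higher ones (Sphk2 and Spns2). Of all genes tested, 9.26% lay apart as lower and 9.12% as higher. Spp1, encoding osteopontin, a ligand of the Cd44 protein, fell from 12.9 ± 1.77 CPM in OIR-Norm to 7.25 ± 0.529 CPM in OIR-CIH (log2 fold change -0.83, SE 0.14, adjusted p = 0.0175 by edgeR's quasi-likelihood test with Benjamini-Hochberg adjustment), and was the only one called. Its call was lost without OIR-CIH replicate 1 or OIR-CIH replicate 3, where the adjusted p reached 0.125. The Timp1 targets Mmp2 and Mmp9 had log2 fold changes of -0.36 (SE 0.09) and 0.06 (SE 0.14). Mmp14, which is membrane-bound, had a log2 fold change of -0.35 (SE 0.10). None of these was called. The Lcn2 receptors Slc22a17 and Lrp2 measured 184.9 and 48.5 CPM in OIR-CIH and 175.0 and 51.1 CPM in OIR-Norm. Lrp1, the clearance receptor for protease-bound A2m, had a log2 fold change of -0.23 (SE 0.10) and Has3, which makes hyaluronan, of -0.50 (SE 0.17).

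Of the other pan-reactive genes, Gfap and Cp were called, both lower in OIR-CIH. All 6 were tested and all 6 had a negative log2 fold change, with a median of -0.61. The groups did not overlap for 3 of them (Gfap, Cp and Osmr), beside 9.26% of all genes tested that lay apart as lower. They overlapped for Vim, Hspb1 and Cxcl10, and 3 of the 6 genes had an unadjusted p under 0.05 in edgeR. Gfap, the intermediate filament of reactive glia, measured 61.5, 62.5 and 67.5 CPM in OIR-CIH and 158.4, 147.3 and 119.3 CPM in OIR-Norm. It fell from a mean of 141.6 ± 20.2 CPM to 63.8 ± 3.19 CPM (log2 fold change -1.15, SE 0.10, adjusted p = 0.000107 by edgeR's quasi-likelihood test with Benjamini-Hochberg adjustment). Cp, encoding the copper-carrying acute-phase protein ceruloplasmin, fell from 358.2 ± 21.9 CPM to 230.9 ± 10.5 CPM (log2 fold change -0.63, SE 0.08, edgeR's Benjamini-Hochberg adjusted p = 0.00409). Vim, the other intermediate filament of Müller glia, was not called, at 272.8 ± 21.3 CPM in OIR-CIH and 297.4 ± 47.0 CPM in OIR-Norm (log2 fold change -0.12, SE 0.11). Gfap and Cp stayed called in all 6 fits without a retina.

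Among the genes named after the A1 and A2 states, 1 was called. Of the 11 A1 genes tested, 5 were lower and 6 higher, with a median log2 fold change of 0.03, and Serping1, the complement C1 inhibitor, was called. Serping1 fell from 19.95 ± 2.71 CPM to 11.1 ± 1.79 CPM (log2 fold change -0.84, SE 0.14, edgeR's Benjamini-Hochberg adjusted p = 0.0202), and the call was lost without OIR-CIH replicate 1, OIR-CIH replicate 2, OIR-Norm replicate 1 or OIR-Norm replicate 2, with adjusted p from 0.01 to 0.127 over the 6 fits. Of the 12 A2 genes tested, 10 were lower and 2 higher, with a median of -0.33. None was called by edgeR's quasi-likelihood test, DESeq2 or limma, and 4 had an unadjusted p under 0.05 in edgeR. The A2 genes with the lowest p were S100a10 (log2 fold change -0.26, SE 0.09), Tgm1 (-1.34, SE 0.45) and Cd109 (-0.75, SE 0.27). Whether these lists differ from each other was not tested.

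A list of 18 further genes for acute-phase proteins of the blood plasma, which does not hold Cp or A2m, was mostly under 1 CPM. Of these genes, 14 were tested, 7 lower and 7 higher, with a median log2 fold change of 0.06, and 3 (Fga, Fgb and Apcs) had no read in any library. None was called by edgeR's quasi-likelihood test, DESeq2 or limma, and 2 had an unadjusted p under 0.05 in edgeR. C3, the central complement protein, was the only one with a mean of at least 1 CPM, at 6.23 ± 0.178 CPM in OIR-CIH and 7.75 ± 1.19 CPM in OIR-Norm (log2 fold change -0.31, SE 0.14).

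Of the cytokine relay known to induce acute-phase genes, the RNA of Stat3 and of its feedback inhibitor Socs3 was called, lower in OIR-CIH. The activity of the relay was not measured. Of 21 genes of this relay that were tested, 17 were lower and 4 higher, with a median log2 fold change of -0.43, and 13 had an unadjusted p under 0.05 in edgeR. The 4 higher genes were Osm, Cntfr, Jak1 and Jak2, none of them called. Stat3 measured 96.4, 98.6 and 97.1 CPM in OIR-CIH and 157.1, 162.7 and 132.9 CPM in OIR-Norm. It fell from a mean of 150.9 ± 15.8 CPM to 97.3 ± 1.12 CPM (log2 fold change -0.63, SE 0.08, edgeR's Benjamini-Hochberg adjusted p = 0.00482) and stayed called in all 6 fits without a retina. Socs3 measured 7.81, 8.81 and 8.02 CPM in OIR-CIH and 15.2, 31.2 and 16.3 CPM in OIR-Norm. It fell from 20.9 ± 8.95 CPM to 8.21 ± 0.526 CPM (log2 fold change -1.35, SE 0.23, edgeR's Benjamini-Hochberg adjusted p = 0.0209), and this call was lost without any 1 of the OIR-CIH replicates, where the adjusted p reached 0.163. Without OIR-Norm replicate 2, the log2 fold change of Socs3 was -0.94. Lif, a cytokine of the IL-6 family made by Müller glia under stress, was chosen for mention after its values were seen. It measured 1.10, 1.70 and 0.820 CPM in OIR-CIH and 2.73, 12.7 and 1.92 CPM in OIR-Norm, was not called, and had a log2 fold change of -2.27 (SE 0.60) that was -0.96 without OIR-Norm replicate 2. It was called with the replicate block, in the looser table that kept all genes with any read, and without OIR-Norm replicate 3. Osmr, the oncostatin M receptor chain and a pan-reactive gene, was picked in the same way and measured 17.5 ± 2.704 CPM in OIR-CIH and 28.5 ± 8.21 CPM in OIR-Norm (log2 fold change -0.70, SE 0.18, and -0.47 without OIR-Norm replicate 2), not called. Il6 itself did not reach 10 reads in all libraries together and was not tested.

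**Figure D4:**
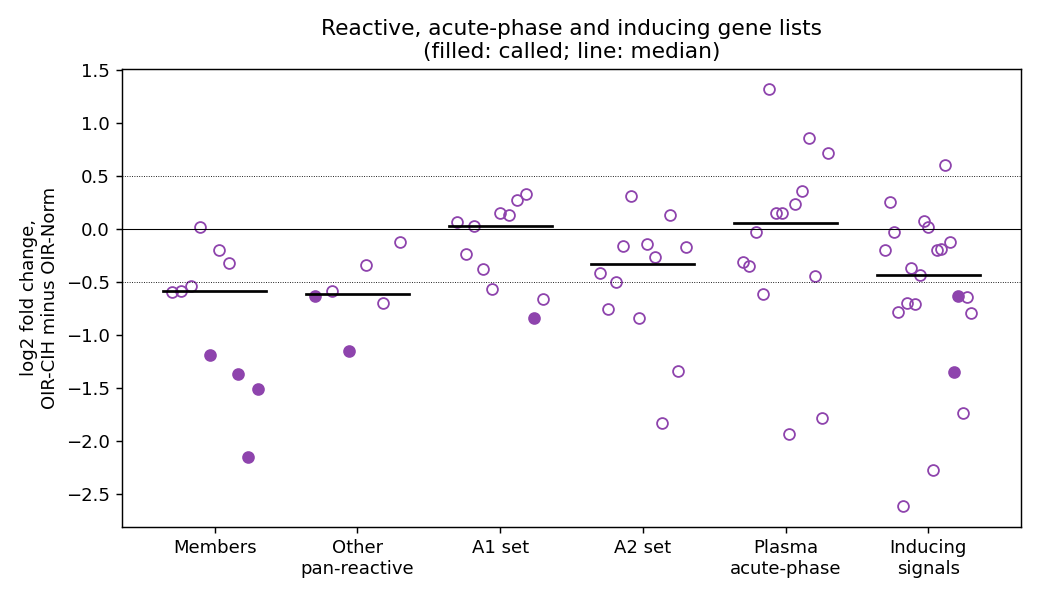
Log2 fold change (OIR-CIH minus OIR-Norm) of every tested gene of 6 lists, 1 circle per gene, filled where called, with the list median as a line and dotted lines at the fold change limits of 0.5 either way. The medians run from -0.61 for the other pan-reactive genes and -0.58 for the 10 genes followed here to 0.06 for the plasma acute-phase genes.

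The cell types that could carry these transcripts were read from marker genes. Müller glia markers, 9 of 9 tested with 4 lower and 5 higher, summed to 3567 to 4295 CPM in OIR-CIH and 3588 to 3877 CPM in OIR-Norm. None of the 9 was called by edgeR's quasi-likelihood test, DESeq2 or limma, and 3 had an unadjusted p under 0.05 in edgeR. Their log2 fold changes ran from -0.31 to 0.34. The 4 astrocyte markers were all lower, with none called by edgeR, DESeq2 or limma and 2 at an unadjusted p under 0.05 in edgeR, and their sums of 96.0 to 128.0 CPM in OIR-CIH overlapped the 106.6 to 168.6 CPM in OIR-Norm. Microglia markers were lower alongside the acute-phase genes, in 13 of 14 with 2 called (Fcrls and Mpeg1), with sums of 142.5 to 156.7 CPM in OIR-CIH and 173.1 to 197.7 CPM in OIR-Norm. DESeq2 called 3 of the 14 and limma 1, edgeR with the replicate block 1, and 9 had an unadjusted p under 0.05 in edgeR. The call of Fcrls stood only in the fit without OIR-Norm replicate 2, and that of Mpeg1 was lost without OIR-CIH replicate 1 or OIR-CIH replicate 2. The median log2 fold change of the microglia markers was -0.30, none was at 0, and their part in the acute-phase genes was not tested. By flow cytometry, the study itself counted fewer microglia in OIR-CIH than in OIR-Norm retinas at PN18. In the RNA values alone, without single-cell data, fewer cells of a type and less RNA per cell cannot be told apart.

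Cell types that enter from the blood or surround the vessels were compared in the same way. The study reported no significant entry of monocytes or other white cells by flow cytometry, without showing the data. The 8 neutrophil markers, from cells rich in Lcn2, summed to 0.314 to 0.582 CPM in OIR-CIH and 0.292 to 1.02 CPM in OIR-Norm, with 2 of them at 0 in every library, and of the 4 tested 3 were lower. Of the 5 monocyte markers 3 were tested, 2 of them lower, and the list summed to 1.18 to 2.46 CPM in OIR-CIH and 2.53 to 3.09 CPM in OIR-Norm. These sums were mostly of F13a1 (means of 1.42 and 2.51 CPM), the only monocyte marker with a mean of at least 1 CPM. Plac8 leaned the other way, at 0.172 CPM in OIR-CIH and 0.0527 CPM in OIR-Norm. The 8 endothelial, 8 mural and 6 fibroblast markers were all lower in OIR-CIH and none was called by edgeR's quasi-likelihood test or limma, while DESeq2 called 1 mural and 2 fibroblast markers. At an unadjusted p under 0.05 in edgeR stood 0 endothelial, 3 mural and 3 fibroblast markers. The sums of these 3 lists overlapped between the groups, fibroblast markers reaching 22.4 to 30.9 CPM in OIR-CIH and 29.7 to 49.9 CPM in OIR-Norm. The endothelial sums were mostly of Kdr, whose log2 fold change of -0.01 was the smallest of that list, and the largest was -0.64. Pigment epithelium markers had the opposite lean, with 5 of 8 higher and 3 lower, sums of 361.9 to 518.4 CPM in OIR-CIH and 234.6 to 429.9 CPM in OIR-Norm, and 5 at an unadjusted p under 0.05 in edgeR. None of these 8 was called by edgeR without a block, DESeq2 or limma, and 4 were called with the replicate block. Red cell genes overlapped as well, at 56.2 to 75.2 CPM and 52.1 to 114.6 CPM. The part of these cells in the acute-phase genes was not tested.

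**Figure D5:**
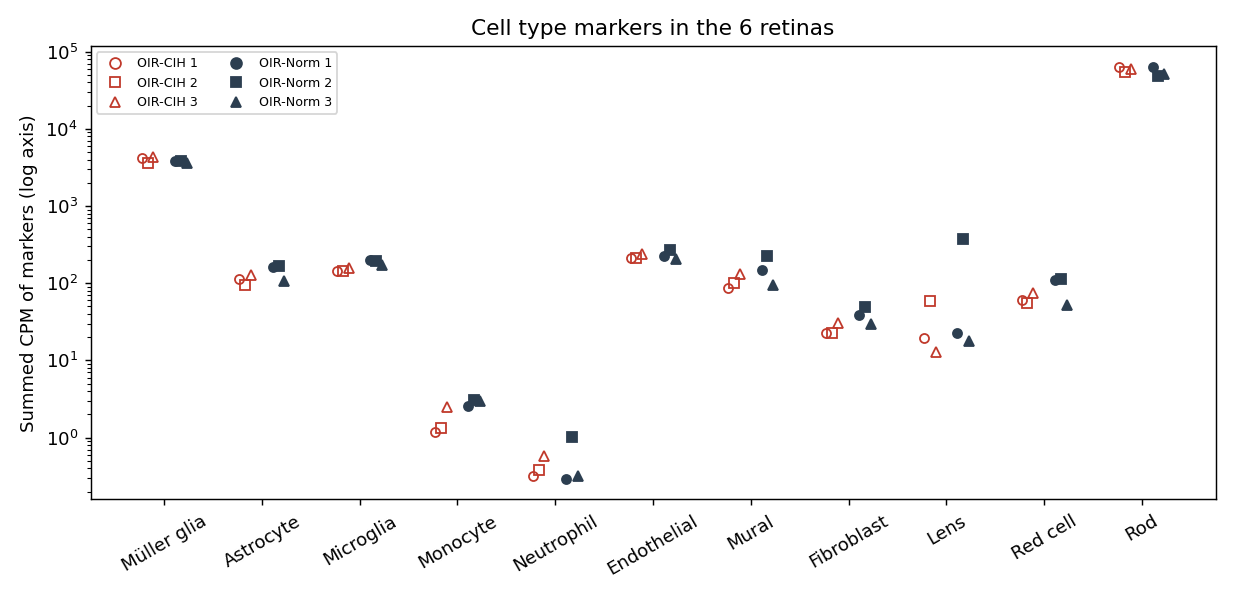
Summed CPM (log axis) of the marker genes of 11 cell types in each retina, with open red symbols for OIR-CIH, filled dark symbols for OIR-Norm and a symbol shape for each replicate number. Microglia sums lie apart between the groups. Monocyte sums lie narrowly apart (2.46 against 2.53 CPM at the nearest pair) and are mostly of F13a1. Müller glia sums overlap, and OIR-Norm replicate 2 stands out by its lens genes at 378.2 CPM.

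Genes with the profile most like the mean of the 10 across the 6 retinas were looked up among 14792 genes with a mean of at least 1 CPM. The 5 most alike were Mmp14 (Pearson r = 0.996), Aspm (0.992), Nup98 (0.990), Mvp (0.990) and Fbln2 (0.989), over 6 retinas that share the group difference. Their log2 fold changes ran from -0.99 for Aspm to -0.16 for Nup98. Mmp14, the membrane-bound metalloproteinase, measured 33.8, 30.8 and 33.2 CPM in OIR-CIH and 42.5, 46.4 and 36.1 CPM in OIR-Norm. Within the 10 genes, Cebpd was the most like the mean of the other 9 (r = 0.927) and Cebpb the least (r = 0.202), with Lcn2 at 0.640. These values describe the same 6 libraries and carry no test.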

How the data were processed

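Retinal mRNA was sequenced by the authors from stranded libraries made with 250 ng of RNA. Per the labels, reads were aligned with STAR 2.7.9a to GRCm38, whereas the study's methods name a later Ensembl release; which strand column was kept is not stated. The deposited values are raw counts per gene, not normalized. Gene symbols and coordinates came from GENCODE M21 (GRCm38), in which 32235 of 32285 identifiers were found. Genes whose counts summed to 10 or more were tested with edgeR 4.0.16 in R 4.3.3 (quasi-likelihood test, TMM scaling, Benjamini-Hochberg adjustment). The SE is the absolute log2 fold change over the square root of the test's F. DESeq2 1.42.0 and limma 3.58.1 served as alternatives, and the code was tested on simulated data.

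The 10 genes and all lists were chosen with earlier results of these data known. Named beside the 10 were up to 6 called genes of each reactive, acute-phase or inducing list, or up to 3 with the lowest p and a mean of at least 1 CPM, Gfap, Vim, Stat3 and Socs3 in any case, paralogues with a mean of at least 1 CPM, partners that were called or, at 1 CPM or more, had a described link, and the 5 most alike genes. Lif, Osmr, Hspb1, Cxcl10, Il6, Timp4, Serpina3g, Pzp, Sphk2, Spns2, Fga, Fgb, Apcs, Fcrls and Mpeg1 lie outside this rule and were named after their values were seen. The same holds for F13a1, Plac8, Kdr, Osm, Cntfr, Jak1 and Jak2. P-values set the difference between the groups against the spread between libraries, which may not be separate animals. Depth per library and low counts limit precision most for Steap4 and Aspg.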

Additional observations from a re-analysis of the deposited data

How the results depend on the processing

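Over all genes, 63 were called (43 lower, 20 higher). DESeq2 called 135, edgeR with every gene of at least 1 count 213, median-of-ratios scaling 64, limma 66, and leaving out 1 retina between 35 (OIR-CIH replicate 1 left out) and 104 (OIR-Norm replicate 3 left out). Of the 10 acute-phase genes, 4 were called, and 2 to 4 without 1 retina. The count was 2 without any 1 OIR-CIH retina or without OIR-Norm replicate 2. Requiring 1 CPM in 3 retinas left 3, since Steap4 and Aspg were then not tested. Of the relay genes, 2 were called, against 4 by DESeq2, 6 with every gene of at least 1 count and 1 to 6 without 1 retina. Of the A1 genes, 1 was called and 0 to 1 without 1 retina; of the A2 genes, 0 and 0 to 1 (Tgm1 without OIR-Norm replicate 3); of paralogues and partners, 1 and 0 to 1. Of these counts recomputed under each setting, 83 stayed within 1.5 times and 21 did not. No called gene of the 10 changed sign, and 112 recomputed log2 fold changes moved by less than the SD between replicates, the other 6 being of Steap4, Timp1 and Aspg. The labels do not say whether the replicate numbers pair the samples. Same-numbered retinas had deviations from their group means with r = 0.162, 0.143 and -0.238, and differently numbered ones with r from -0.404 to 0.224. With 3 retinas per group these deviations are tied to each other, so the values cannot decide on a pairing. With the replicate number as a block 84 genes were called, among them 5 of the 10 (A2m added) and 3 relay genes. The cause of these moves was not tested. Low counts limit Steap4 (5 to 46 reads) and Aspg (10 to 18 reads).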
